A study of Homo sapiens with 2 samples.

Results

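The spliceosome core proteins described here were 48 genes, taken from the count table by symbol and grouped by the particle their products belong to. There were 20 genes of the U2 snRNP and its associated proteins, 6 of the U1 snRNP, 8 of the U4/U6.U5 tri-snRNP, 7 of the catalytic complex and 7 Sm proteins, out of 58347 genes in the table. All 48 were found in GENCODE 29. The samples were 1 group of 2 biological replicates of untreated HEL cells, an established human erythroleukemia line, from which RNA crosslinked to U2AF2 was recovered with an antibody and sequenced (eCLIP). Libraries of input RNA or of a control antibody were not analysed here, so no value is an enrichment over background; comparisons run across genes and across the replicates.

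The spliceosome assembles anew on each intron from small nuclear ribonucleoproteins (snRNPs). U1 recognises the 5′ splice site. U2AF2 binds the pyrimidine-rich tract just before the 3′ splice site and helps the U2 snRNP onto the branch site, after which the U4/U6.U5 tri-snRNP joins and helicases remodel the assembly into its catalytic form. The genes below therefore encode the partners and successors of U2AF2 on the intron, while the libraries record RNA fragments bound to U2AF2, including any from the introns of these same genes.

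Counts on genes summed to 995428 in replicate 1 and 1350116 in replicate 2, and 97.3% and 97.4% of uniquely mapped reads lay on no counted feature. Levels are given as CPM, counts per 1000000 counts of the scaled library. Where a gene had 0 counts, its level could be as high as 2.98 CPM in the first library and 2.25 CPM in the second, the value of 3 counts. Floors and intervals cover counting error only. No source used here gives the strand setting of the counting, and reads on overlapping genes of opposite strands cannot be assigned to either with certainty. The erythroid markers TAL1 and ALAS2 reached 10 counts in each library, and 1 of 6 megakaryocyte markers did (GP1BA). None of the 3 T cell, 3 B cell and 3 hepatocyte markers did, but HBG1, KLF1, GP9 and PF4, which mark the lineages of HEL, held 4 counts or fewer in each library.

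In some places the exons of an opposite-strand gene lie over a 3′ splice site of a spliceosome gene, the kind of site beside which U2AF2 is known to bind. Sequences of such sites are shown on the strand of the spliceosome gene, 5′ to 3′, as read through the GENCODE 29 transcript of the opposite gene (GRCh38). The longest run of C and T in the intron part is in capitals. In PRPF31 and SNRPF sites the last 10 bases are exon, and in the other sites, which overlap an annotated untranslated region and were kept to 30 bases, the last 6 are exon. The sites of PRPF31 and CHERP followed the naming rule, and those of DHX38 and SNRPF were chosen after their values were seen, to set beside them. For DHX38, 2 of 4 readable sites are shown, the most pyrimidine-rich; in the others C and T made up 65% and 40% of the 20 bases before the final AG of the intron.
PRPF31, chr19:54123414-54123463, plus strand: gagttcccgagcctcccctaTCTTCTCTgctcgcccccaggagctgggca
PRPF31, chr19:54123709-54123758, plus strand: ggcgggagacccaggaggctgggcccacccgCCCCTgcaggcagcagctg
PRPF31, chr19:54124459-54124508, plus strand: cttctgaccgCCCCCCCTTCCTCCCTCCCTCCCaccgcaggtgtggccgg
CHERP, chr19:16520907-16520936, minus strand: cacacggaatgccgtgTCTTacagtgaagg
CHERP, chr19:16520502-16520531, minus strand: tgatcatcaggCCTCTCCCCacagcggacc
CHERP, chr19:16520260-16520289, minus strand: acccttgggcaCCCTTCCCTgcagaagtcg
SNRPF, chr12:95879648-95879697, plus strand: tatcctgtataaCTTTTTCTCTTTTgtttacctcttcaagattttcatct
DHX38, chr16:72094373-72094402, plus strand: gtgTCTTCCTCTgctctctcacagtgtcat
DHX38, chr16:72112389-72112418, plus strand: tgaTCTCTCCTgctgtgtctccaggtctac

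The intron ended in AG at all 12 sites of spliceosome genes that could be read this way. C and T made up a median of 77.5% of the 20 bases before that AG, with a range from 40% to 90%. Over 4544 such sites of all protein-coding genes the intron ended in AG at 99.1%, and the median was 75%. Among the sites shown, the longest run was the 23 bases of the third PRPF31 site and the shortest the 4 bases of the first CHERP site.

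Own counts were low for most of the genes. Only 8 of 48 held at least 10 counts in each library, 26 held 5 counts or fewer over both libraries together, and SF3B5, SNRPB2, SNRNP40 and SNRPB held 0. Of all 19817 protein-coding genes 24.8% reached 10 counts in each library, so the share among spliceosome genes, 16.7%, was no higher than the background. The 48 genes together held 438 counts in replicate 1 and 578 in replicate 2, and 64.8% and 61.2% of these fell on PRPF31, DHX38, DHX8 and CHERP. The count of 8 genes was 14 without replicate 1, in the deeper library alone.

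Among the complexes, the catalytic proteins held the most counts in sum, with 170 and 209, and 3 of the 7 reached 10 counts in each library. Tri-snRNP proteins held 120 and 163 (2 of 8 genes), U2 proteins 114 and 142 (3 of 20), U1 proteins 18 and 32 (0 of 6) and Sm proteins 16 and 32 (0 of 7). In sum the catalytic genes stood at 163 ± 8.38 CPM (SD, n = 2), the tri-snRNP genes at 121 ± 2.29, the U2 genes at 110 ± 4.64, the U1 genes at 20.9 ± 4.35 and the Sm genes at 19.9 ± 5.75. The last pair did not differ beyond their spread. The largest sums rest on few genes, since PRPF31, DHX38, DHX8 and CHERP held 64.8% and 61.2% of the counts of all 48. By median per kb of merged exon over both libraries together, the complexes stood in another order. The median was 0.795 counts per kb for U2, 0.925 for U1, 1.83 for U4/U6.U5, 1.246 for the catalytic complex and 1.31 for Sm proteins, against 0.913 for all protein-coding genes. On the log2 CPM scale, U4/U6.U5 had a median level of 2.81, catalytic genes 2.36, U1 genes 1.87, Sm genes 1.83 and U2 genes 1.60, beside 1.78 for all protein-coding genes. Within the catalytic complex that median was 2.74 in replicate 1 and 1.99 in replicate 2, which spans much of the distance between complexes. Members of a complex are not replicates, and no test between complexes was made.

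**Figure D1:**
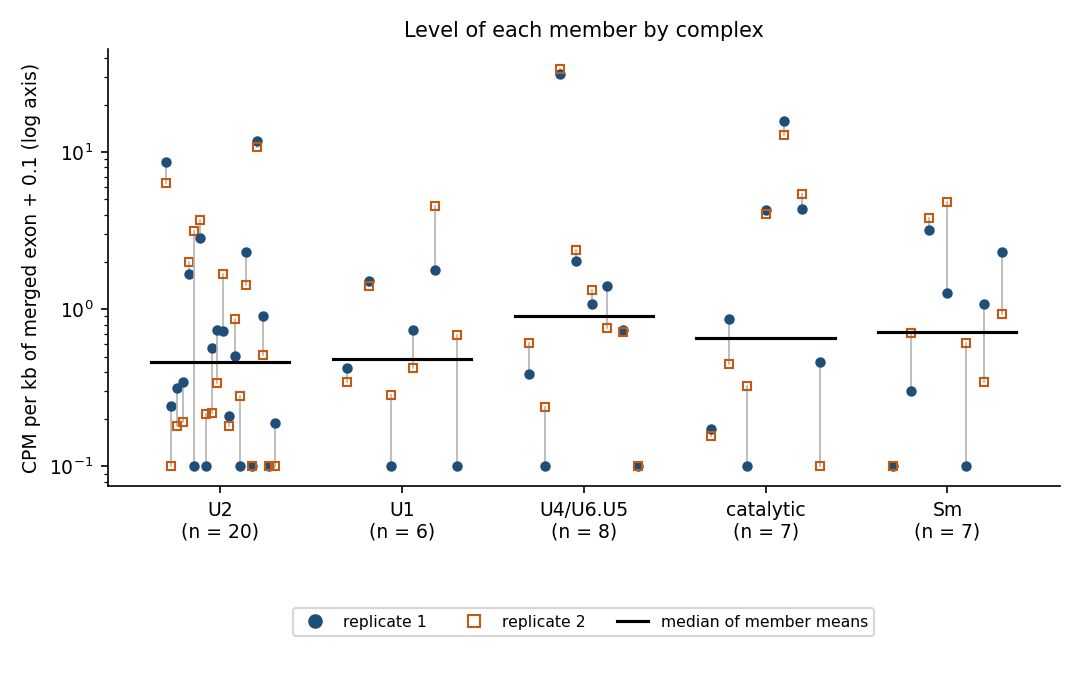
Level of each of the 48 genes, as CPM per kb of merged exon plus 0.1 on a log axis, by complex. Circles are replicate 1, squares are replicate 2 joined by a grey line, and the black bar is the median of the means over both replicates. Most genes lie near the bottom of the axis in every complex, and PRPF31, at 32.6 ± 1.51 CPM per kb (SD, n = 2), is the highest point.

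In the U2 snRNP, the SF3b complex grips the branch site helix and SF3a joins it to the rest of the particle. SF3B1, the scaffold of SF3b and a gene recurrently mutated in myeloid disease, held 1 count in each library. SF3B2 held 4 and 10, SF3B3 0 and 3, SF3B4 5 and 4, and PHF5A, which shapes the branch site pocket with SF3B1, 0 and 5. SF3B6, which encodes the p14 protein close to the branch point adenosine, was the exception, with 14 and 17 counts. Its level of 11.1 ± 0.670 CPM per kb (SD, n = 2) was the third highest of the 48. SF3B6 (chromosome 2, 24067584 to 24076443, minus strand) had no opposite gene over its span. The SF3a genes SF3A1, SF3A2 and SF3A3 held 3 and 1, 2 and 1, and 3 and 10 counts, and of the U2 core proteins SNRPA1 held 3 and 2 and SNRPB2 none.

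Of 8 U2-associated proteins, CHERP and PUF60 reached 10 counts in each library. CHERP (chromosome 19, 16517889 to 16542530, minus strand), which travels with U2 together with U2SURP and RBM17, held 53 and 51 counts, or 45.4 ± 10.1 CPM (SD, n = 2). Its partners U2SURP and RBM17 held 1 and 0 counts and 0 and 1. PUF60, which like U2AF2 binds uridine-rich tracts, held 15 and 26 counts, or 17.2 ± 3.27 CPM, with no opposite gene. The helicase genes DDX46 and DHX15 held 2 and 1 counts each. DDX39B, the helicase known as UAP56 that works with U2AF2, held 1 and 0, and HTATSF1, which binds SF3B1, held 5 and 8. By own counts CHERP thus stood apart from the proteins it is known to work with. Its exons share 1021 bases with those of C19orf44 on the other strand, which held 736 and 883 counts. Whether this overlap adds to the counts of CHERP was not tested.

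No U1 gene reached 10 counts in each library. SNRNP70, SNRPA and SNRPC, the U1-specific proteins, held 3 and 2, 4 and 14, and 0 and 1 counts. The LUC7-like genes, whose products help choose among 5′ splice sites, held 2 and 2 (LUC7L), 9 and 11 (LUC7L2) and 0 and 2 (LUC7L3). LUC7L2, a gene lost in some myeloid neoplasms, lay just below the minimum.

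In the tri-snRNP, PRPF31 (chromosome 19, 54115410 to 54131719, plus strand), which holds U4 and U6 to U5, led all 48 genes per length. It held 85 and 120 counts, or 87.2 ± 4.03 CPM (SD, n = 2). The large U5 protein PRPF8, at the heart of the active site, held 15 and 10 counts. The helicase SNRNP200 held 7 and 9, the GTPase EFTUD2 3 and 7, PRPF4 7 and 11, PRPF6 3 and 5, PRPF3 0 and 1 and SNRNP40 none. By own counts PRPF31 was therefore far above its neighbours in the particle, while PRPF8 and SNRNP200, with the longest merged exons of the group, gathered few counts. The exons of PRPF31 share 589 bases with those of AC245052.4 and 266 with those of TFPT, both on the other strand. Whether this overlap adds to the counts of PRPF31 was not tested.

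In the catalytic complex the counts fell on 3 DEAH-box helicase genes. DHX38, which remodels the spliceosome before exon ligation, held 101 and 109 counts, or 91.0 ± 13.0 CPM (SD, n = 2). DHX8, which releases the spliced mRNA, held 45 and 74, or 50.1 ± 7.69 CPM, and DHX16, which acts before the first step, held 17 and 21, or 16.3 ± 0.785 CPM. The other 4 genes, CDC5L and PRPF19 of the Prp19 complex, CWC22 and the helicase AQR, held 5 and 3, 1 and 0, 0 and 1, and 1 and 1 counts. The catalytic sum was thus that of its helicases acting around the 2 steps of splicing.

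Sm proteins form the ring on U1, U2, U4 and U5 RNAs. SNRPD3 held 3 and 16 counts and SNRPD2 5 and 8, while SNRPG held 4 and 2, SNRPF 3 and 1, SNRPD1 1 and 4, SNRPE 0 and 1 and SNRPB none. Reads mapping to several places are outside the counts, and 11 of the 48 genes have pseudogenes named after them, 65 in all, of which 20 belong to SNRPG, 18 to SNRPC and 9 to SNRPE. These pseudogenes held 82 and 157 counts. Low counts of such genes are therefore uncertain. Of the 48 genes, 8 share exon bases with a gene on the same strand, which held 9 counts or fewer in each library for any of them.

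The genes lying opposite held many more counts than the spliceosome genes. A gene was called opposite when its exons overlapped the span of a spliceosome gene on the other strand. There were 29 such genes, facing 22 of the 48, and they held 3008 counts in replicate 1 and 3880 in replicate 2. This was 87.3% of own plus opposite counts in replicate 1 (exact 95% binomial interval 86.1 to 88.4) and 87.0% in replicate 2 (86.0 to 88.0). Over all protein-coding genes the share was 43.3% and 42.8%, but that sum left out opposite genes that are themselves protein-coding. It is therefore not comparable with the 87.3% and 87.0%. With non-coding opposite genes only, the share for the spliceosome genes was 58.9% over both libraries together. Of those 12 non-coding genes AC245052.4, opposite PRPF31, held most of the counts, with 522 and 686. The next, AC130343.2 opposite PRPF8, held 23 and 44. The 58.9% therefore rests mainly on the PRPF31 locus and does not describe the genes as a set. In 18 of the 22 genes the opposite genes held more counts in both libraries, where 51.6% of all protein-coding genes with an opposite gene did. At least 10 opposite counts in each library faced 15 of the 22, against 53.8% of all protein-coding genes with an opposite gene, and 9 of these 15 spliceosome genes had fewer than 10 own counts in at least 1 library.

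**Figure D2:**
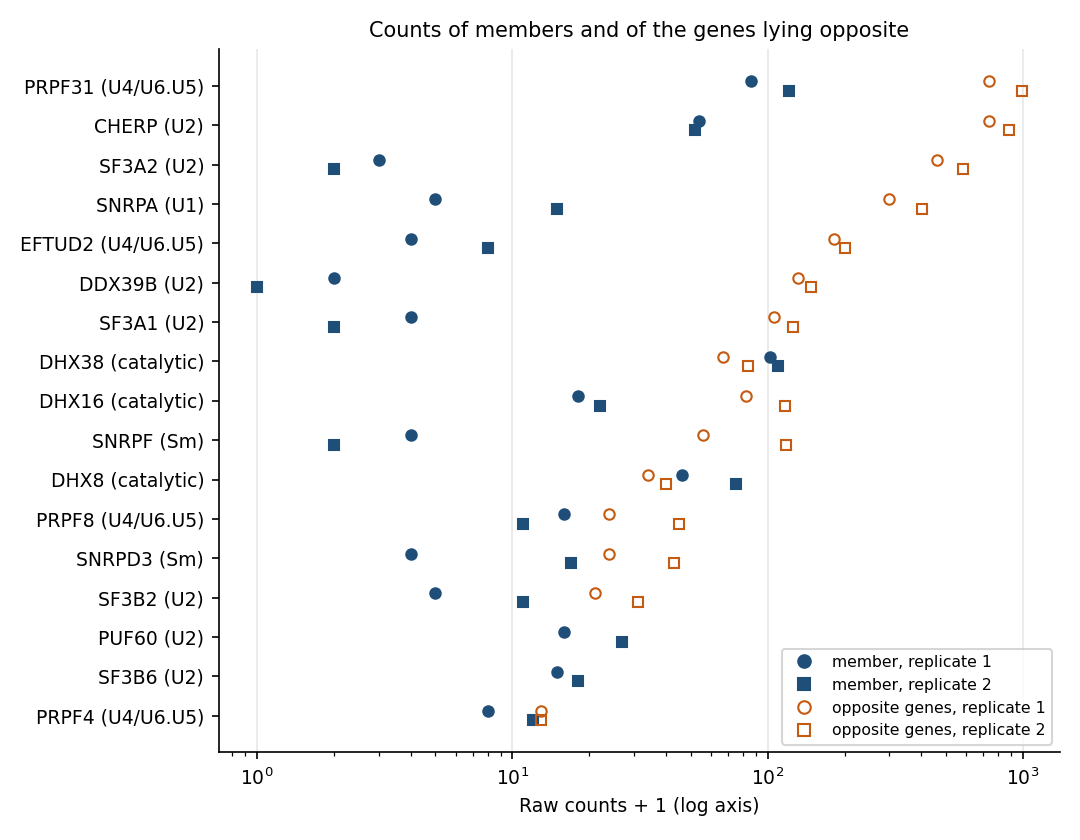
Raw counts plus 1, on a log axis, for the 17 spliceosome genes reaching 10 counts in each library on the gene itself or on its opposite genes in sum. Filled symbols are the gene and open symbols its opposite genes; circles are replicate 1 and squares replicate 2. Open symbols lie to the right of filled ones except for DHX38 and DHX8; PUF60 and SF3B6 have no opposite gene.

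The complexes differed in this share. Opposite genes held 92.8% ± 0.0752 (SD, n = 2) of own plus opposite counts for U2 genes, 93.6% ± 1.14 for U1 genes, 88.6% ± 0.301 for tri-snRNP genes and 84.1% ± 0.502 for Sm genes. For catalytic genes it was 53.4% ± 1.57, under this definition below the other 4 groups by more than the spread of the replicates. The exact binomial interval of the catalytic share was 46.9 to 57.5% in replicate 1 and 49.8 to 59.1% in replicate 2, and the lowest bound of the other 4 groups was 76.0%, for Sm genes in replicate 1. Within the U2 group, however, the 7 SF3b genes had a share as low, with 52.0% in replicate 1 (37.4 to 66.3) and 45.2% in replicate 2 (33.5 to 57.3), from 26 and 33 opposite counts. Each share rests on few loci, and the order holds for this definition of an opposite gene only. With at least 50% of exon bases inside required, Sm genes keep only LRRC75B, with 3 counts in each library against 16 and 32 own counts. Catalytic genes then keep ETV4, with 33 and 39, AC018868.1, with 6 and 12, and RF00017, with 0, against 170 and 209 own counts. The catalytic share is then no longer the lowest.

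Among U2 genes, SF3A2 (chromosome 19, 2236504 to 2248679, plus strand) gave the widest contrast. It held 2 and 1 counts, and PLEKHJ1, which overlaps its start, held 458 and 582, or 445 ± 12.5 CPM (SD, n = 2). Only 18.5% of the exon bases of PLEKHJ1 lay within SF3A2, so most of its exon bases lay outside SF3A2. CHERP faced C19orf44, with 736 and 883 counts, or 696 ± 47.9 CPM. The exons of C19orf44 covered 3 of the 3′ splice sites of CHERP, shown above, and 42.5% of their bases lay within CHERP. SF3A1, with 3 and 1 counts, faced CCDC157, with 105 and 125. DDX39B, with 1 and 0, faced MCCD1, with 123 and 142, although 14 of the 955 exon bases of MCCD1 lay within DDX39B. SF3B2 faced the antisense RNA AP006287.2, with 20 and 30 counts. SNRPB2, SF3B1, DDX46 and U2SURP each faced 1 non-coding gene or pseudogene with 25 counts or fewer in each library.

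In the other snRNPs most genes with an opposite gene again held fewer counts than it, with LUC7L2 and SNRPD2 as exceptions. SNRPA of U1, with 4 and 14 counts, faced C19orf54, with 299 and 403 counts, or 299 ± 4.05 CPM (SD, n = 2). In the tri-snRNP, PRPF31 faced the antisense RNA AC245052.4 and the gene TFPT. AC245052.4 (chromosome 19, 54119511 to 54125343, minus strand) held 522 and 686 counts, or 516 ± 2.25 CPM, lay wholly inside PRPF31 and covered 5 of its 3′ splice sites. Of these sites 3 lay with their flanks in 1 exon of AC245052.4 and are shown above. TFPT, over the start of PRPF31, held 215 and 300 counts. EFTUD2, with 3 and 7 counts, faced HIGD1B, with 145 and 160, and CCDC103, with 30 and 34. PRPF8 faced the antisense RNA AC130343.2, with 23 and 44 counts over its start. PRPF4, with 7 and 11, faced CDC26, with 12 in each. Among Sm genes SNRPF, with 3 and 1 counts, faced CCDC38, with 55 and 117, and SNRPD3 faced GUCD1, with 20 and 39.

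Of the 4 catalytic genes with an opposite gene, DHX38 and DHX8 held more counts than it, and DHX16 and AQR fewer. DHX38 (chromosome 16, 72093562 to 72112912, plus strand) held 101 and 109 counts, more than PMFBP1, with 56 and 75, and TXNL4B, with 10 and 8, together. Opposite genes took 39.5% of the counts at this locus in replicate 1 (exact 95% binomial interval 32.1 to 47.4) and 43.2% in replicate 2 (36.1 to 50.6). DHX8 (chromosome 17, 43483865 to 43610338, plus strand), with 45 and 74 counts, also exceeded its partner, ETV4, a transcription factor gene that lies wholly inside it and held 33 and 39. DHX16, with 17 and 21, fell below C6orf136, with 81 and 116 over its far end, and AQR, with 1 in each library, below the pseudogene AC018868.1, with 6 and 12. LUC7L2 held more than its opposite gene, AC083880.1, in both libraries, but SNRPD2 and QPCTL changed order between the replicates, with 5 and 8 against 9 and 6 counts.

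**Figure D3:**
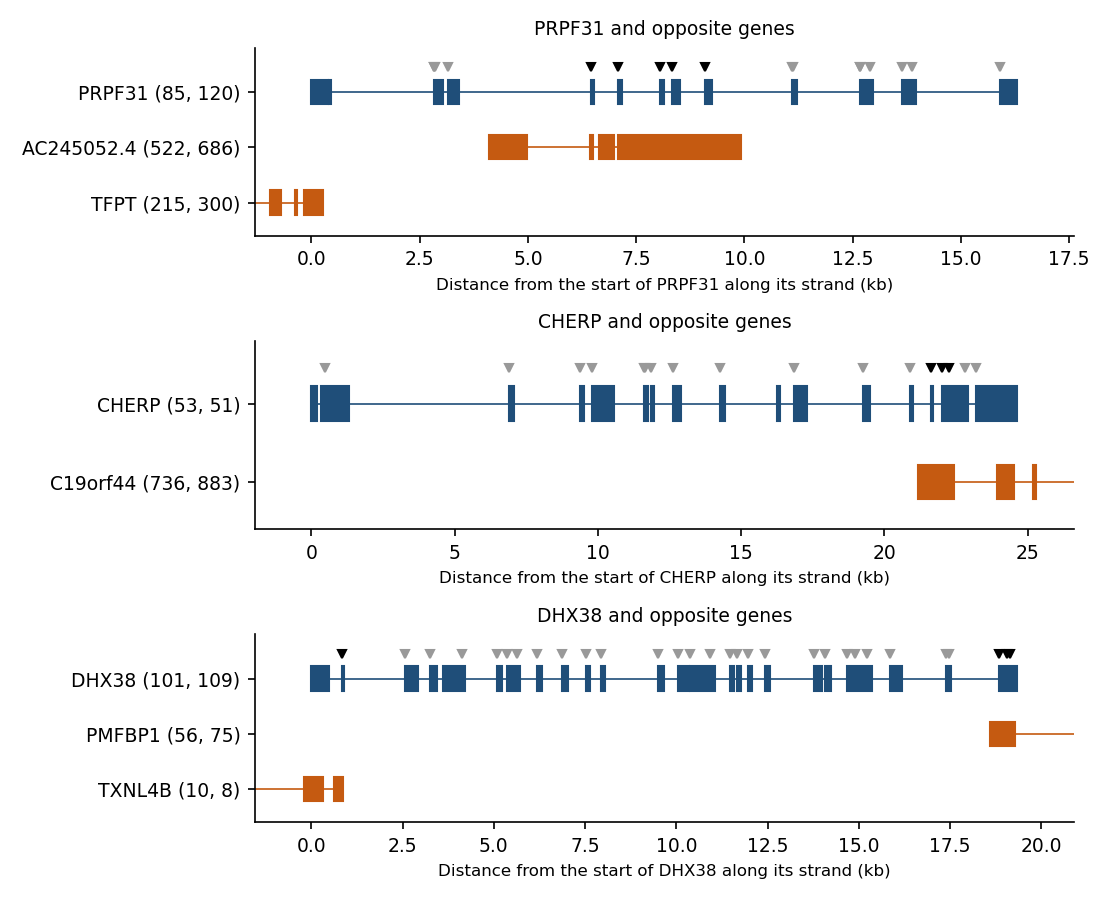
Merged exons of PRPF31, CHERP and DHX38 (blue) and of their opposite genes (orange), by distance in kb from the start of the spliceosome gene along its strand, with raw counts in replicates 1 and 2 in brackets. Triangles mark annotated 3′ splice sites of the spliceosome gene, black where an opposite exon covers them; genes that run past the panel are clipped. AC245052.4, with 522 and 686 counts, lies inside PRPF31 over 5 of these sites, and C19orf44, with 736 and 883, covers 3 near the far end of CHERP.

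Opposite genes overlapped the start of the spliceosome gene in 12 cases, its far end in 7 and lay inside it in 10. Those over the start held 1197 and 1583 counts in sum, those over the far end 1216 and 1523, and those inside 595 and 774, of which AC245052.4 held 522 and 686. Apart from AC245052.4, ETV4 was the only gene wholly inside a spliceosome gene with at least 10 counts in each library. When only the genes with at least 50% of their exon bases inside the spliceosome gene were kept, the opposite share was 58.3%. Most of those opposite counts were on AC245052.4. Opposite genes then held more than the spliceosome gene in 6 cases. The counts have no position within a gene, so for partners with a small overlap it is not known whether their reads lay in it.

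Since U2AF2 is known to bind beside 3′ splice sites, opposite genes were divided by whether their exons covered such a site of the spliceosome gene. The 6 that did (C19orf44, AC245052.4, PMFBP1, TXNL4B, ETV4 and CCDC38) averaged 123 counts per kb of exon over both libraries, with a range of 5.68 to 366, and the 23 that did not averaged 96.7, with a range of 0 to 415. The ratio of the means was 1.27 in each replicate, but the ratio of the medians was 0.73, so the direction depended on the measure. At least 10 counts in each library were found on 5 of the 6 and on 12 of the 23. Among opposite genes with at least 50% of their exon bases inside the spliceosome gene, the ratio of means was 3.87, from 2 genes that covered a site and 9 that did not. Over all protein-coding genes, the 3066 opposite genes that covered a 3′ splice site averaged 210 counts per kb and the 11178 others 55.6. C19orf44 and AC245052.4 held 366 and 291 counts per kb, while PMFBP1, over the second DHX38 site printed above, held 23.0. Covered sites thus went with both high and low counts.

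The reverse arrangement was then examined, in which exons of the spliceosome gene cover a 3′ splice site of the opposite gene. This held for 7 genes, namely CHERP, PRPF31, DHX38, DHX8, SF3B2, EFTUD2 and SNRPF, and the 4 genes with the most own counts were among them. The minimum of 10 counts in each library was reached by 4 of these 7, by 2 of the 15 genes with an opposite gene but no such site (PRPF8 and DHX16), and by 2 of the 26 with no opposite gene (SF3B6 and PUF60). Over all protein-coding genes 50.6% of those covering such a site reached this level, 31.4% of those with an opposite gene but no such site and 13.1% of those with no opposite gene. With any opposite gene the share was 37.0%. Median own counts over both libraries were 104, 4 and 4.5 in these 3 sets of spliceosome genes, and 25, 8 and 2 in the same sets of all protein-coding genes. The division was chosen after the counts were seen and has no test. SF3B2, EFTUD2 and SNRPF, with 14, 10 and 4 counts over both libraries, were low although they covered such a site.

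**Figure D4:**
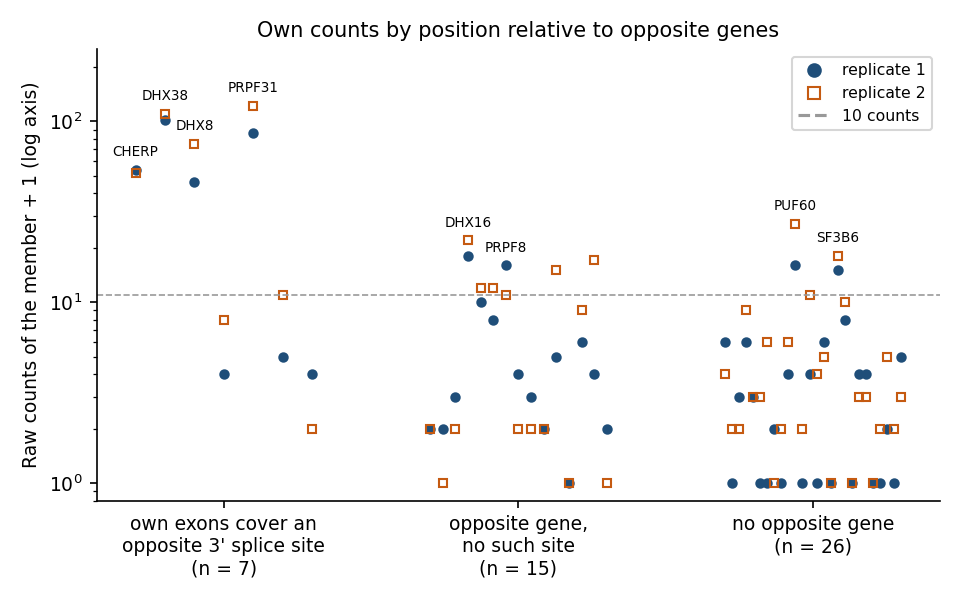
Raw counts of each of the 48 genes plus 1 on a log axis, by whether its exons cover a 3′ splice site of an opposite gene (7 genes), it has an opposite gene without such a site (15) or it has none (26). Circles are replicate 1, squares replicate 2, and the dashed line marks 10 counts. PRPF31, DHX38, DHX8 and CHERP lie above every other gene, and SF3B6 and PUF60 are the highest without an opposite gene.

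The replicates were compared gene by gene with a two-sided exact binomial test that allowed for library size. Among 8983 genes reaching 10 counts in each library, 0.501% differed after Benjamini-Hochberg adjustment over all of them. None of the 8 spliceosome genes tested did, 0 had an unadjusted p below 0.05, and counts scaled by DESeq2 size factors also gave 0 calls. The lowest adjusted exact p among them was 0.716, for PRPF8, whose scaled level in replicate 2 was 0.504 of that in replicate 1. Scaled ratios of the 8 genes ran from 0.504 to 1.31. Of 17 opposite genes tested, none differed after adjustment and 1 had an unadjusted exact p below 0.05. This was CCDC38, opposite SNRPF, with a ratio of 1.61 (exact p = 0.00335, adjusted p = 0.225). The ratio was 1.07 for PRPF31 and 0.994 for AC245052.4. The test compares 2 libraries and covers counting error only, and the 40 genes below the minimum were not tested.

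**Figure D5:**
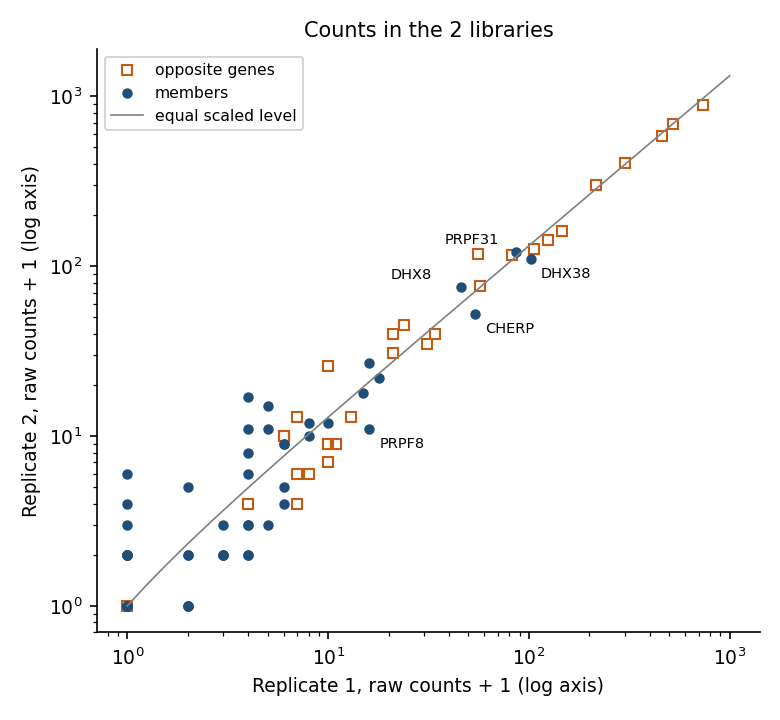
Raw counts plus 1 in replicate 1 against replicate 2, on log axes, for the 48 spliceosome genes (circles) and the 29 opposite genes (squares). The line marks equal levels after scaling to library size. Points with many counts lie near the line, and the scatter widens below 10 counts.

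Another 74 splicing genes gave a comparison outside the core list. Of these, 17 held at least 10 counts in each library, where 24.8% of all protein-coding genes did. At least 10 opposite counts in each library faced 30 of the 37 with an opposite gene, against 53.8% of all protein-coding genes with an opposite gene. The minimum was reached by 5 of 15 further tri-snRNP proteins, 3 of 9 proteins of the minor spliceosome, 3 of 15 of Prp19-related complexes, 2 of 5 second-step factors, 2 of 6 U1-associated and 2 of 8 branch site factors. None of the 6 exon junction and 10 snRNP assembly genes did. LSM4, of the ring on U6 RNA, held 507 and 660 counts with no opposite gene, more than any of the 48 core genes, and USP39, which is needed for tri-snRNP recruitment, held 258 and 358. RBM5, a splicing regulator, showed the inverse, with 0 and 1 counts against 1523 and 2191 on its opposite genes, led by RBM5-AS1. PRMT5, which methylates Sm proteins, held none, with 567 and 758 counts opposite, led by PRMT5-AS1. LSM4, USP39, RBM5 and PRMT5 were chosen after their values were seen.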

How the data were processed

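RNA bound to U2AF2 was profiled in 2 HEL libraries. The submitters' processing notes list cutadapt and STAR 2.7.0f as tools and GRCh38.p10 as the genome build. The table deposited by the authors held raw counts per gene, with no normalization. How reads were counted, on which strand, with which annotation and whether PCR duplicates were removed is not given in the sources used here. Remaining duplicates would make intervals too narrow, and the strand setting decides which of 2 overlapping genes receives a read. Tallies of reads not counted on a gene were left out of library sizes. They made up 98.3% of all reads in each library and included multimapping reads, 22.1% and 20.7% of all reads.

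Ensembl identifiers, versions removed, were looked up in GENCODE 29 (GRCh38) for spans, merged exons, 3′ splice sites and transcript sequences; 58084 of 58347 genes had a model. Library sizes were scaled by TMM in edgeR 4.0.16 (R 4.3.3) over genes reaching 10 counts in each library, with factors of 1.01 and 0.987. CPM is counts per 1000000 scaled counts. A prior count of 2 was added before taking log2 CPM. With 1 group, edgeR's quasi-likelihood test had no contrast. Replicates were compared by an exact binomial test with Benjamini-Hochberg adjustment at 0.05. It was run on simulated Poisson counts, which vary by counting error only. That check cannot show how the test behaves with duplicates or with variation between replicates. DESeq2 1.42.0 gave alternative size factors. Python 3.11.15, numpy 2.4.6, scipy 1.17.1, pandas 2.3.3 and matplotlib 3.10.9 were used.

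The genes, the lists and the tests were chosen with earlier results of these data known. Values in full were given for the highest and lowest gene of each complex, genes with at least 10 own or opposite counts in each library, and the opposite gene with most counts. Sites were to be shown for the 8 genes with the most opposite counts, at most 3 each; of these only PRPF31 and CHERP had a site whose window lay in 1 exon of an opposite transcript. Windows of 40 intron and 10 exon bases were used, or 24 and 6 over untranslated regions. Alternatives covered the count minimum, scaling, prior count, the definition of an opposite gene and each replicate left out. Some marker and site results are not reported here.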

Additional observations from a re-analysis of the deposited data

How the results depend on the processing

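No paired analysis was possible because there was 1 group. Of 59 alternative values, 32 stayed within the spread between replicates or within 1.5 times, 26 moved and 1 changed direction. The 8 genes reaching 10 counts in each library were 13 with a minimum of 5 and 4 with a minimum of 20, and from 8 to 14 with a replicate left out. None of the spliceosome genes tested differed between the replicates in any of the 3 alternatives, and 1 of 44 had an unadjusted exact p below 0.05 when all genes with a count were tested. Median log2 CPM with a prior count of 0.5 was 0.75 for U2, 1.23 for U1, 2.50 for U4/U6.U5, 1.14 for Sm and 1.249 for all 48 genes. Among genes reaching that minimum it was 4.23 for U2, 5.05 for U4/U6.U5, 5.69 for catalytic and 4.89 for all; U1 and Sm had no such gene. Among genes with no opposite gene it was 1.95 for U2, 1.51 for U1, 1.69 for U4/U6.U5, 1.10 for catalytic and 1.43 for Sm. With a replicate left out it ranged from 1.49 to 1.88 for U2, 1.68 to 2.23 for Sm and 1.83 to 2.23 for all. The order of the complexes therefore moved with the setting. The opposite share, 87.1%, was 58.3% for opposite genes with at least 50% of their exon bases inside and 58.9% for non-coding opposite genes. AC245052.4, opposite PRPF31, held most of the opposite counts behind both values, with 522 and 686. The share was 86.4% without PRPF31, under the main definition only, and 92.2% per kb of exon. The count of 18 genes with more opposite counts was 6 with at least 50% of exon bases inside. The ratio of means for opposite genes with and without a covered 3′ splice site, 1.27, was 3.87 under the same limit and 0.73 as a ratio of medians. The cause of these shifts was not tested beyond the smaller number of genes. Counts below 10 limit 40 of the 48 genes.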
